A study of Mus musculus with 7 samples.

Results

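The data describe 44 antioxidant and glutathione genes of the kind controlled by the transcription factor NRF2, in endothelial cells of mouse liver that lacked c-Maf or did not. The genes were listed by name, as enzymes and regulators of glutathione, thioredoxin and peroxide metabolism and as NRF2 targets. All 44 were found among the 52636 genes of the count table, and all 44 passed the filter on low counts that left 15512 genes for testing. Polyadenylated RNA was sequenced from liver endothelial cells isolated by FACS (fluorescence-activated cell sorting), in 4 libraries labelled c-Maf KO and 3 labelled Control. The labels do not state how Maf was deleted, in which cells, or the strain, age and sex of the mice. Nor do they state whether each library came from its own animal, so p-values reflect only the spread among these libraries, part of which may be technical.

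NRF2, encoded by Nfe2l2, is a basic leucine zipper factor that is marked for degradation by KEAP1 and the ubiquitin ligase scaffold CUL3, and that accumulates when oxidants or electrophiles modify KEAP1. It binds antioxidant response elements as a dimer with a small MAF protein (MAFF, MAFG or MAFK), and BACH1 occupies the same elements as a repressor. Its targets make and recycle glutathione, conjugate electrophiles, reduce quinones, degrade haem and keep thioredoxin reduced. c-Maf is a large MAF protein, which carries an activation domain that the small MAFs lack, and the sites that it prefers overlap in sequence with antioxidant response elements.

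The classic NRF2 targets and the members with the largest change are shown here by the sequence before their start, since the letters bound by NRF2 with a small MAF, and by MAF dimers, can be read there. Of the 44 members, 37 had a promoter entry in the RefSeq table used (GRCm38.p6), and Gclc, Gsr, Gsta4, Gstt2, Hmox1, Prdx6 and Sod3 had none. Each line gives the 250 bases before the start, read 5′ to 3′ on the strand of the gene, with any match to TGACNNNGC, the core of the antioxidant response element, in capitals on either strand.
Gstm5, chr3:107895604-107895853, plus strand: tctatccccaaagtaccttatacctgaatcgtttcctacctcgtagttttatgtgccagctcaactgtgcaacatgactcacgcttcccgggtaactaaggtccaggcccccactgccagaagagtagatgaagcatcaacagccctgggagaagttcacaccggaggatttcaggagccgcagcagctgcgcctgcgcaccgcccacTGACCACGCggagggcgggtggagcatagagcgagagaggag
Blvrb, chr7:27447728-27447977, plus strand: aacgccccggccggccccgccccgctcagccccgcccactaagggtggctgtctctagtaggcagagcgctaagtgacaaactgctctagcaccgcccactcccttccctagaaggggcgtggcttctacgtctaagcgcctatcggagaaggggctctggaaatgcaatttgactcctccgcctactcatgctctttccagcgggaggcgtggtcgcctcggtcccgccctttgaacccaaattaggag
Srxn1, chr2:152105274-152105523, plus strand: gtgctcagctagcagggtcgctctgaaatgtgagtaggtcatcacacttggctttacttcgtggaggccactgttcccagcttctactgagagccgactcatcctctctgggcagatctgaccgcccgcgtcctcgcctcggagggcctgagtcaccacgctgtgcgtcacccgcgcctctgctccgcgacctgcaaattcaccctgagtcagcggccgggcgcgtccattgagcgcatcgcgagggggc
Gclm, chr3:122245307-122245556, plus strand: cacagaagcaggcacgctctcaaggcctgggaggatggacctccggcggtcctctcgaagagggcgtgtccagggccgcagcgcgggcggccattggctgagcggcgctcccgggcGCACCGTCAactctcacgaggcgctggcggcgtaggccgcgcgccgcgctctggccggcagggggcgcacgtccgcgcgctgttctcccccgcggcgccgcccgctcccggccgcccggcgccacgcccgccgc
Nqo1, chr8:107403206-107403455, minus strand: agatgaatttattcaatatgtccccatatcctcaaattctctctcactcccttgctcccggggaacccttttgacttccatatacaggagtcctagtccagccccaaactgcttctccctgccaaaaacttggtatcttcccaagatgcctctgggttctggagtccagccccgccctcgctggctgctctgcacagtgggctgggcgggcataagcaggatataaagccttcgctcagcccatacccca

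Gstm5 and Gclm each held a single match to the core within these bases, and the windows of Blvrb, Srxn1 and Nqo1 held no exact match to the letters searched. The Srxn1 window holds tgagtcagcg, which differs only in its last base from the match in the Gstp1 line below. Near matches were not counted, and sequence beyond 250 bases before the start was not searched. TGACNNNGC was found before 7 of 37 members (18.9%; Blvra, Gclm, Gstm5, Mgst1, Prdx1, Sod1 and Txnrd1), against 11.5% of 27025 genes in the table. The same core followed by an A, every match of which is also a match of the core, was found before Blvra and Txnrd1 (5.41% of members, against 2.8% of genes). The 2 forms searched of the MAF recognition element, which MAF dimers bind, hold the flank of 1 side only and are thus partial elements. The form in capitals in the Osgin1 line was found before Gstp1 and Osgin1 (5.41% of members, against 0.141% of genes). The other form was found before no member and 0.141% of genes, and its reverse complement is also a match of the core, so these motifs overlap. The stretches around 6 of these matches are printed here with the match in capitals. They were chosen after the matches were seen because they hold the partial MAF recognition element, the longer core or the core.
Gstp1, chr19:4037967-4037996, minus strand: tccaacgtgtTGAGTCAGCAtccggggcgg
Osgin1, chr8:119437037-119437066, plus strand: caggggccccTGCTGACTCAcgcttatgaa
Txnrd1, chr10:82859103-82859132, plus strand: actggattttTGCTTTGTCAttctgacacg
Blvra, chr2:127070597-127070626, plus strand: tcacgggaatTGCTCGGTCAaggctccgcc
Prdx1, chr4:116685456-116685484, plus strand: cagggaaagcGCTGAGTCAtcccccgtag
Mgst1, chr6:138140461-138140489, plus strand: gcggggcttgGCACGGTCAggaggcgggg

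For Osgin1, Txnrd1 and Mgst1 the RefSeq start used lies inside the gene as outlined by GENCODE, and so do the printed stretches. The Gstp1 start also lies inside, and its printed stretch crosses the upstream boundary of the GENCODE gene. The starts used for Gstm5, Prdx1, Srxn1 and Nqo1 lie a shorter way inside, with the matches of Gstm5 and Prdx1 before the GENCODE start. A gene with several RefSeq starts was counted if any of them had a match, and of the Blvrb starts the one next to the GENCODE start is shown. A match describes the letters only and does not say that a factor was bound. Among the members with a core match, Gstm5 and Mgst1 rose in c-Maf KO cells and the other 5 did not pass the test, as the results by role describe.

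Maf itself, the deleted gene, stood at 28.9, 158.9, 124.5 and 37.7 CPM (counts scaled to a common library total) in KO libraries 1 to 4. Controls 1 to 3 held 1664, 2088 and 2147 CPM, so every KO library lay far under every control (log2 fold change -4.49, SE 0.576, adjusted p = 0.000347). Total counts were 24772716 to 32960007 per library, and by their labels KO 3 and control 3 ran in lane 4, and all others in lane 5. CPM values carry the trimmed mean of M-values (TMM) scaling, and adjusted p-values come from edgeR's quasi-likelihood test over all 15512 genes with Benjamini-Hochberg adjustment. The words rose and fell mean an adjusted p under 0.05 for KO against control.

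Other RNA moved with genotype. The summed level of 15 hepatocyte markers was 1760, 414, 519 and 824 CPM in KO 1 to 4, against 311 to 368 CPM in controls, and 9 of the 15 rose. Erythroid markers (9 genes) summed to 40.6, 7.81, 6.40 and 22.1 CPM in KO 1 to 4, against 2.59 to 10.2 CPM in controls. KO 1 and KO 4 were the highest in both, and results are also given without these 2 libraries. They also held the least Maf (28.9 and 37.7 CPM, against 158.9 and 124.5 CPM in KO 2 and KO 3). In results without them, hepatocyte or erythroid RNA and the depth of Maf loss thus cannot be told apart. Markers of sinusoidal endothelium (8 genes) summed to 7351 to 11850 CPM in KO cells, against 30160 to 33620 CPM in controls, and 7 of 8 fell. General endothelial markers (7 genes) summed to 7916 to 10620 CPM in KO cells, against 12100 to 13350 CPM in controls. Of these 7, 3 fell and 1, Egfl7, rose. Genes induced by tissue dissociation (16 genes) summed to 27100, 22290, 13530 and 16260 CPM in KO 1 to 4, against 9337 to 12080 CPM in controls, and 8 of 16 rose. Stellate cell and fibroblast markers (12 genes) summed to 88.2 to 158.1 CPM in KO cells, against 209.8 to 349 CPM in controls, and 6 fell and none rose. Ecm1 was the largest part of this sum, with means of 84.25 CPM in KO and 172.9 CPM in control libraries. Libraries of the groups did not overlap for 4 of the 12, Ecm1 among them. The part of these cells and of dissociation in the members' results was not tested. T and NK cell markers summed to at most 0.947 CPM in any library. In bulk RNA, fewer cells of a type and less RNA per cell cannot be told apart.

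Of the 44 members, 10 rose and 11 fell in KO cells, and 23 did not pass the test. The 21 that passed stand beside 45.2% of all genes. Of the members, 22.7% rose and 25.0% fell, against 23.0% and 22.2% of all genes tested, so the number of members that moved was near the background in both directions. Counts by role and by wider list, given further on, stand beside the same shares of all genes. The median log2 fold change was -0.061 over the members and 0.043 over all genes. Libraries of the groups did not overlap for 22 members (10 higher and 12 lower in KO), beside 50.3% of all genes. Within lane 5 alone, 6 members rose and 13 fell, and without KO 1 and KO 4 there were 8 rises and 6 falls. Leaving out control 2 gave 5 rises and 6 falls, control 3 gave 6 rises and 8 falls, control 1 gave 11 rises and 7 falls, KO 2 gave 8 rises and 7 falls, and KO 4 gave 7 rises and 6 falls. Calls over all genes, 3561 rises and 3448 falls, changed as well. They became 3069 and 3830 in lane 5 alone, and 2234 and 2420 without KO 1 and KO 4. They were 2379 and 2584 without control 2, 2806 and 2920 without control 3, and 2914 and 3086 without control 1. Without KO 2 they were 3085 and 3076, and without KO 4 they were 2720 and 2833. The library kit is named in a stranded and an unstranded version without saying which was used. Exons of Gclm, Gss, Gstm5, Txnrd2, Txnip, Prdx2, Prdx5 and Keap1 overlap exons of other genes on the opposite strand, so reads there cannot be told apart.

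**Figure D1:**
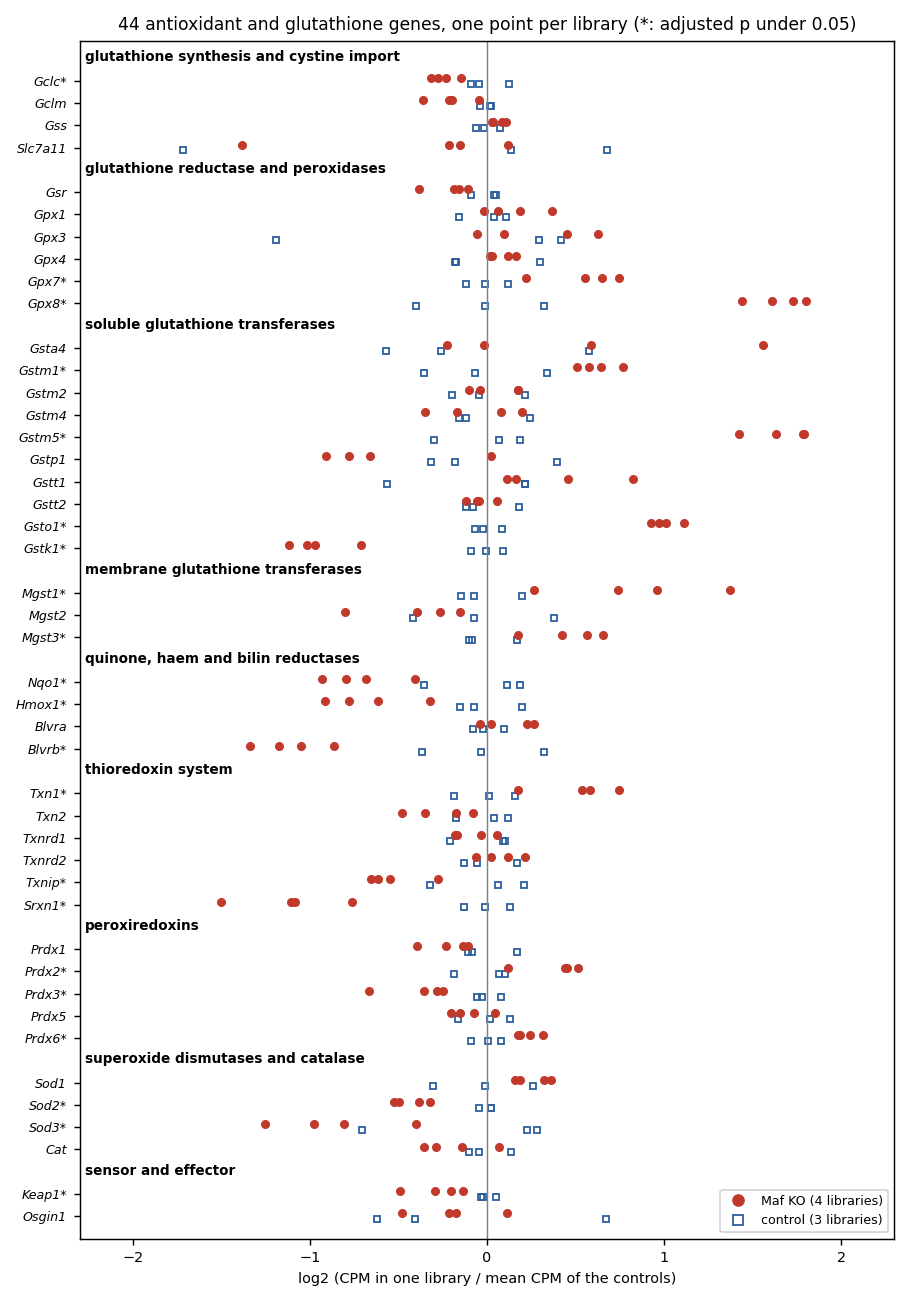
Log2 ratio of each library's TMM-scaled CPM to the control mean for the 44 antioxidant and glutathione genes (down the page, by role), with a point for each c-Maf KO library and each control library. Rising members such as Gstm5, Gpx8 and Gsto1 and falling members such as Blvrb, Srxn1 and Gstk1 show KO points clear of all control points, whereas the points of most other members lie near or among each other.

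Members that rose were led by a mu-class and an omega-class glutathione transferase and a peroxidase of the endoplasmic reticulum, and members that fell by a bilin reductase, sulfiredoxin and a kappa-class glutathione transferase. Gstm5 stood 3.17-fold, Gpx8 3.13-fold and Gsto1 2.01-fold higher in KO cells. Blvrb stood 2.14-fold, Srxn1 2.13-fold and Gstk1 1.93-fold lower. These 6 passed the test in all 20 alternative analyses that were run. The other 15 members that passed changed by less, and each lost its call at least under a test against a 1.5-fold change.

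The scaling of the libraries set the balance between rising and falling calls. With library totals in place of TMM, the median log2 fold change of all genes moved to 0.31, and that of the members to 0.20. The members then counted 16 rises and 4 falls, beside 41.1% and 12.7% of all genes. The share of calls that were rises was 47.6% of the members' calls with TMM and 80.0% with totals, against 50.8% and 76.3% over all genes. Of the 21 members called with TMM, 13 passed the test in the same direction under all 3 other scalings (relative log expression, upper quartile and library totals), 9 of them rises and 4 of them falls. The 9 were Gpx7, Gpx8, Gstm1, Gstm5, Gsto1, Mgst1, Mgst3, Txn1 and Prdx2, and the 4 were Gstk1, Hmox1, Blvrb and Srxn1.

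**Figure D2:**
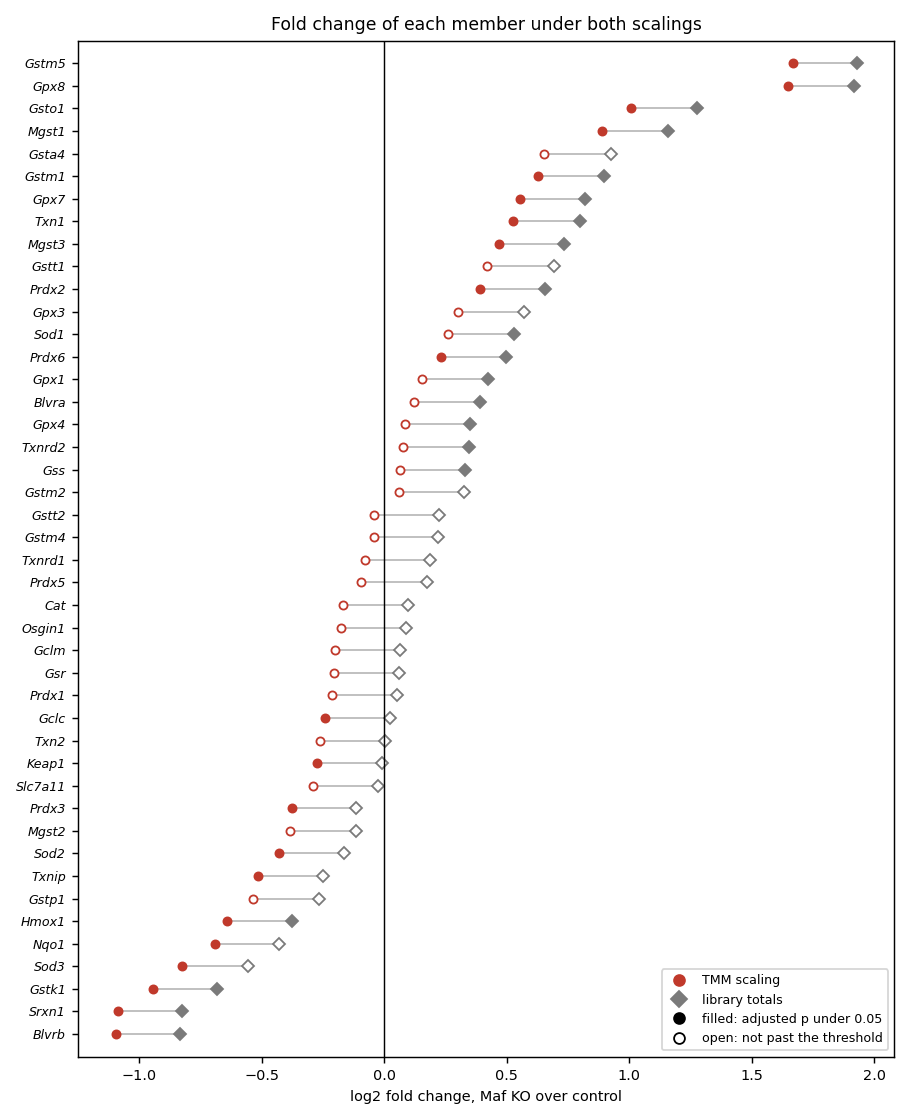
Log2 fold change of the members, c-Maf KO over control, under TMM scaling and under library totals. Values shift upward together with totals, which leaves Gstk1, Hmox1, Blvrb and Srxn1 as the falls that passed the test under both scalings.

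Of the 4 genes of glutathione synthesis and cystine import, 1 fell by a small margin and none rose, and with library totals 1 rose and none fell. Gclc, the catalytic subunit of the enzyme that sets the rate of glutathione synthesis, held 64.4, 60.6, 57.2 and 58.9 CPM in KO 1 to 4, against 77.8, 69.1 and 66.8 CPM in controls 1 to 3. Every KO library lay under every control (log2 fold change -0.24, SE 0.0827, adjusted p = 0.0397). The call was lost without control 1 (adjusted p = 0.147), control 2 (0.0807), KO 2 (0.0729) or KO 4 (0.0817), and with library totals the value turned to 0.025. Gclm, the modifier subunit of the same enzyme, averaged 41.9 ± 3.77 CPM in KO (SD, n = 4) and 48.2 ± 1.11 CPM in control libraries (n = 3). Its groups did not overlap, but it missed the threshold (log2 fold change -0.20, adjusted p = 0.0924), and with totals its sign turned to 0.065. Gss, which adds glycine in the second step, averaged 11.4 ± 0.311 CPM in KO and 10.9 ± 0.509 CPM in control libraries. Slc7a11, the cystine import subunit of the xCT exchanger, was low, at 0.460 to 1.30 CPM in KO and 0.364 to 1.92 CPM in control libraries.

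Both listed peroxidases of the endoplasmic reticulum rose, and the other 3 peroxidases and glutathione reductase did not pass, while with library totals there were 4 rises, Gpx1 (adjusted p = 0.0114) and Gpx4 (0.049) among them. Gpx8, a peroxidase of the endoplasmic reticulum membrane that uses peroxide formed during protein folding, held 17.0, 14.8, 13.2 and 16.1 CPM in KO 1 to 4, against 6.08, 4.83 and 3.68 CPM in controls 1 to 3. The lowest KO library lay far above the highest control (log2 fold change 1.65, SE 0.182, adjusted p = 0.000155). Gpx7, its soluble relative in the same compartment, held 12.5, 15.8, 16.8 and 18.0 CPM in KO and 11.7, 10.7 and 9.91 CPM in control libraries. The groups did not overlap, with KO 1 close to control 1 (log2 fold change 0.55, SE 0.141, adjusted p = 0.0118), and the call was lost in lane 5 alone (adjusted p = 0.093). Gpx1, the main cytosolic selenoenzyme, averaged 125 ± 14.8 CPM in KO and 113 ± 10.3 CPM in control libraries. Gpx4, which reduces lipid hydroperoxides in membranes, averaged 172 ± 8.54 CPM in KO and 162 ± 32.4 CPM in control libraries. Gpx3, the secreted form, averaged 5.32 ± 1.15 CPM in KO and 4.30 ± 2.11 CPM in control libraries. Gsr, which recycles oxidised glutathione, lay at 34.2 ± 2.77 CPM in KO and 39.4 ± 2.12 CPM in control libraries without overlap, and missed the threshold (log2 fold change -0.21, adjusted p = 0.0927, and 0.058 with totals).

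Soluble glutathione transferases, which join glutathione to electrophiles, counted 3 rises and 1 fall among 10 genes. Gsto1 (chr19:47854970-47864790, plus strand, GRCm38), an omega-class enzyme with thiol transferase and dehydroascorbate reductase activity, held 94.1, 96.6, 91.2 and 104 CPM in KO 1 to 4, against 47.3, 45.8 and 50.8 CPM in controls 1 to 3. Spread within each group was small beside the gap between them (log2 fold change 1.01, SE 0.0810, adjusted p = 3.3e-05). Gstk1 (chr6:42245935-42250447, plus strand), the kappa-class enzyme of mitochondria and peroxisomes, held 20.2, 22.3, 26.7 and 21.6 CPM in KO, against 43.5, 41.1 and 46.5 CPM in control libraries. All KO libraries lay well under all controls (log2 fold change -0.95, SE 0.108, adjusted p = 0.000186). Both passed the test in every alternative run.

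Within the mu-class cluster on chromosome 3, the 4 listed genes gave different results. Gstm5 (chr3:107895821-107898686, plus strand) held 3.71, 4.30, 4.80 and 4.78 CPM in KO 1 to 4, against 1.13, 1.46 and 1.58 CPM in controls 1 to 3 (log2 fold change 1.67, SE 0.206, adjusted p = 0.000288). This was a clear separation at a low level, from 666 counts over all libraries. Gstm1, a major conjugating enzyme of liver, held 82.6, 90.8, 86.7 and 98.9 CPM in KO, against 73.5, 55.5 and 45.4 CPM in control libraries. All KO libraries lay above control 1, the highest of a spread control group (log2 fold change 0.63, SE 0.151, adjusted p = 0.009). Gstm2 averaged 136 ± 13.7 CPM in KO and 131 ± 19.1 CPM in control libraries, and Gstm4 3.02 ± 0.510 CPM in KO and 3.12 ± 0.493 CPM in control libraries, with overlapping groups. How reads shared between these similar genes were counted is not given, so the split among them is uncertain. Exons of Gstm5 also share 178 bases with 4933431E20Rik on the opposite strand (291 counts over all libraries), and without a known strand setting their reads cannot be told apart.

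Other soluble transferases did not pass. Gstp1, the pi-class enzyme, held 48.0, 25.2, 27.6 and 29.9 CPM in KO, against 62.2, 41.7 and 38.0 CPM in control libraries. KO 1, which was also highest in hepatocyte markers, was the only KO library inside the control range (log2 fold change -0.54, adjusted p = 0.0975). Without KO 1 and KO 4 it passed (adjusted p = 0.0235), and whether hepatocyte RNA took part was not tested. Gsta4, which acts on the lipid peroxidation product hydroxynonenal, averaged 1.02 ± 0.621 CPM in KO and 0.648 ± 0.280 CPM in control libraries. The theta-class genes averaged 1.87 ± 0.444 CPM in KO and 1.40 ± 0.391 CPM in control libraries for Gstt1, and 34.3 ± 1.73 CPM in KO and 35.3 ± 4.08 CPM in control libraries for Gstt2.

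Membrane-bound transferases of the MAPEG family counted 2 rises among 3 genes, beside 23.0% of all genes. Mgst1, which protects membranes of endoplasmic reticulum and mitochondria, held 38.7, 17.9, 24.9 and 29.0 CPM in KO 1 to 4, against 14.2, 13.5 and 17.1 CPM in controls 1 to 3 (log2 fold change 0.89, SE 0.231, adjusted p = 0.0129). KO libraries ranked in the order KO 1, KO 4, KO 3 and KO 2, which is also their order in summed hepatocyte markers. It is the reverse of their order in Maf level as well, and KO 2 lay just above control 3. The call was lost without KO 1 and KO 4 (log2 fold change 0.52, adjusted p = 0.0635) and without control 2 (adjusted p = 0.0551), and the part of hepatocyte RNA in it was not tested. Mgst3 averaged 15.9 ± 2.24 CPM in KO and 11.5 ± 1.26 CPM in control libraries (log2 fold change 0.47, SE 0.140, adjusted p = 0.0235). KO 1 matched control 1 at 13.0 CPM, and the call was lost without control 2 (adjusted p = 0.0973), control 3 (0.0806), KO 3 (0.0528) or KO 4 (0.0727). Mgst2 averaged 2.08 ± 0.382 CPM in KO and 2.72 ± 0.754 CPM in control libraries, and did not pass.

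Of the haem, bilin and quinone reductases, 3 of 4 fell, beside 22.2% of all genes, and with library totals 2 fell and 1 rose. Hmox1, the inducible haem oxygenase that opens haem to biliverdin, held 51.2, 62.8, 45.8 and 41.6 CPM in KO 1 to 4, against 90.0, 74.6 and 70.7 CPM in controls 1 to 3. All KO libraries lay under all controls (log2 fold change -0.64, SE 0.145, adjusted p = 0.00671). Blvrb (chr7:27447978-27466144, plus strand), a reductase of biliverdin and flavins, held 23.6, 32.8, 28.8 and 26.4 CPM in KO, against 74.5, 58.2 and 46.3 CPM in control libraries. It had the largest fall among the members (log2 fold change -1.10, SE 0.164, adjusted p = 0.000783). Blvra, the other biliverdin reductase, averaged 19.6 ± 2.01 CPM in KO and 17.9 ± 1.11 CPM in control libraries and did not pass, so the 2 reductases gave different results. Nqo1, the quinone reductase often read as a reporter of NRF2 activity, held 6.65, 6.06, 8.70 and 7.20 CPM in KO, against 13.1, 9.04 and 12.5 CPM in control libraries. KO 3 came close to control 2 without passing it (log2 fold change -0.69, SE 0.176, adjusted p = 0.0117), and the call was lost with library totals (adjusted p = 0.0756) and without KO 1 and KO 4 (0.0781).

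Hmox1 is also made by macrophages that clear red cells, and Blvrb by red cells. Summed Kupffer cell and macrophage markers (12 genes) were 105, 228, 82.7 and 74.3 CPM in KO 1 to 4, against 102, 335 and 168 CPM in controls 1 to 3, and 1 rose and 1 fell. Of the 12, 10 had negative log2 fold changes, with a median of -0.72. The summed erythroid markers, given with the other cell types, were higher in KO 1 and KO 4 than in any control. The part of either cell type in the Hmox1 and Blvrb results was not tested.

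The thioredoxin system counted 1 rise and 2 falls among 6 genes, and 2 rises and 1 fall with library totals. Srxn1 (chr2:152105516-152111376, plus strand), sulfiredoxin, which rescues overoxidised peroxiredoxins, held 10.7, 14, 17.8 and 14.2 CPM in KO 1 to 4, against 29.9, 32.9 and 27.5 CPM in controls 1 to 3. The groups lay far apart (log2 fold change -1.09, SE 0.157, adjusted p = 0.000655). Txn1, the cytosolic thioredoxin, held 131, 127, 98.8 and 147 CPM in KO, against 97.8, 88.2 and 76.9 CPM in control libraries. KO 3 lay just above control 1 (log2 fold change 0.52, SE 0.141, adjusted p = 0.0147), and the call was lost without control 2 (adjusted p = 0.0525), control 3 (0.0619) or KO 1 and KO 4 (0.0886). Txnip, which binds and inhibits thioredoxin and responds to glucose, held 848, 916, 1104 and 874 CPM in KO, against 1547, 1394 and 1067 CPM in control libraries. KO 3 exceeded control 3, the pair sequenced in lane 4, so the groups overlapped (log2 fold change -0.51, SE 0.160, adjusted p = 0.0272). The Txnip call was lost without control 1 (adjusted p = 0.109), control 2 (0.0934), KO 1 (0.0575), KO 2 (0.0641) or KO 4 (0.0744), and with totals (0.167). Thioredoxin reductases and the mitochondrial thioredoxin did not pass. Txnrd1, the cytosolic reductase, averaged 68.2 ± 5.47 CPM in KO and 72.0 ± 8.46 CPM in control libraries, and Txnrd2, the mitochondrial one, 11.7 ± 0.958 CPM in KO and 11.1 ± 1.24 CPM in control libraries. Txn2, the mitochondrial thioredoxin, averaged 49.6 ± 6.12 CPM in KO and 59.5 ± 6.09 CPM in control libraries.

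**Figure D3:**
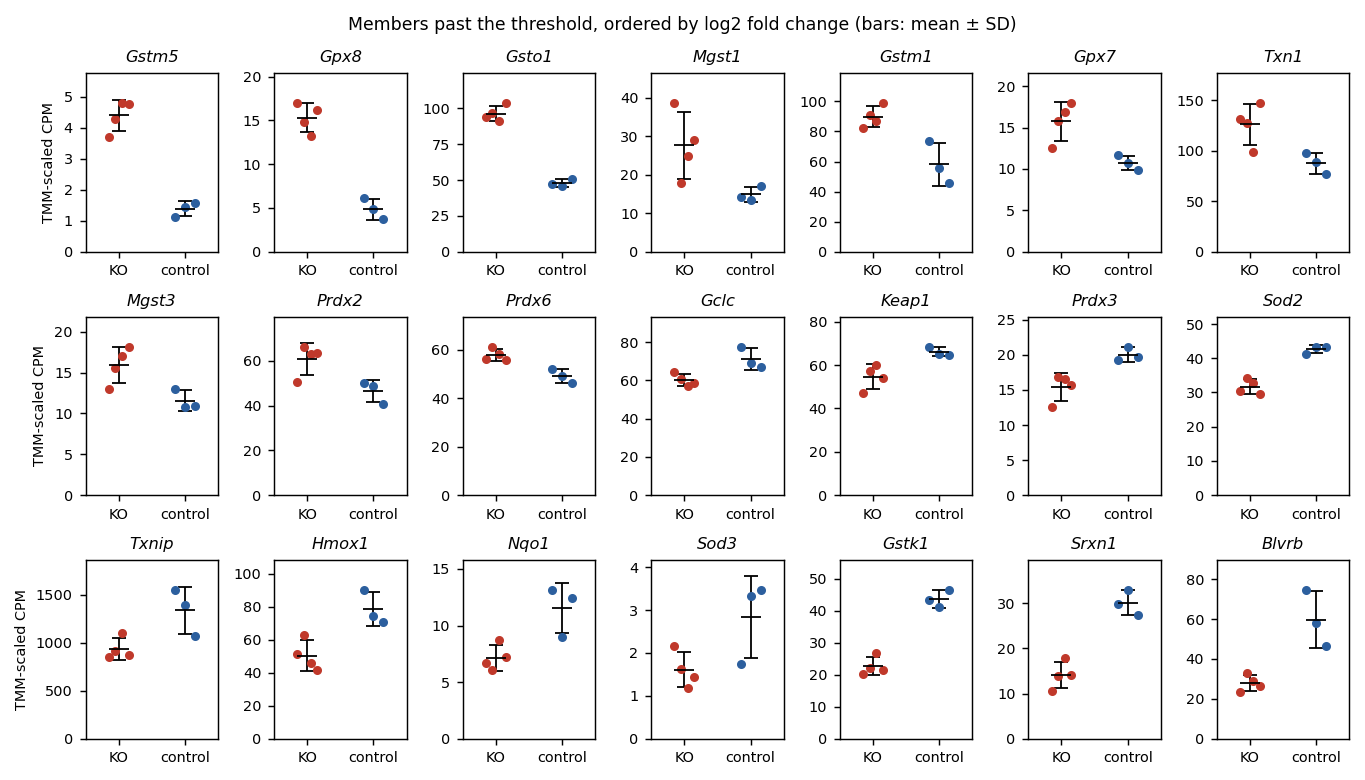
TMM-scaled CPM of members that passed the test, with a point for each library, bars for the mean and SD of each group, and c-Maf KO left of control in each panel. Libraries of the genotypes do not overlap for 19 of the 21 called members, with Txnip and Sod3 as the exceptions.

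Peroxiredoxins, which reduce hydrogen peroxide with thioredoxin or, for Prdx6, glutathione, counted 2 rises and 1 fall among 5 genes, all small, and 2 rises and no fall with library totals. Prdx2, a cytosolic form, averaged 60.9 ± 7.03 CPM in KO and 46.5 ± 4.94 CPM in control libraries (log2 fold change 0.39, SE 0.115, adjusted p = 0.0223). It is abundant in red cells, whose markers were highest in KO 1 and KO 4, and the part of red-cell RNA was not tested. Prdx2 held 50.6, 66.4, 63.1 and 63.6 CPM in KO 1 to 4. Without KO 1 and KO 4 it still rose (log2 fold change 0.48, adjusted p = 0.0143). Its exons share 173 bases with Junb on the opposite strand, a gene at 2183, 1767, 1006 and 1364 CPM in KO and 1128, 1040 and 858 CPM in control libraries, and 177 with Rnaseh2a, so its value is uncertain. Prdx6 averaged 57.9 ± 2.58 CPM in KO and 49.3 ± 2.89 CPM in control libraries (log2 fold change 0.23, SE 0.0771, adjusted p = 0.0351). Prdx3, the mitochondrial form, averaged 15.4 ± 1.93 CPM in KO and 20.1 ± 1.01 CPM in control libraries (log2 fold change -0.38, SE 0.118, adjusted p = 0.0276). The Prdx6 call was lost in 11 of 20 alternatives, among them relative log expression scaling (adjusted p = 0.0536), DESeq2 (0.0984) and lane 5 alone (0.211). In lane 5 alone the Prdx2 call was lost too (0.153), and the Prdx3 call was lost with upper-quartile scaling (0.0876) and library totals (0.419). Each of these 3 calls was also lost by leaving out single libraries. Without control 2 the adjusted p was 0.0555 for Prdx2, 0.114 for Prdx6 and 0.106 for Prdx3, without control 3 it was 0.0951, 0.151 and 0.06, and without KO 4 it was 0.0587, 0.0531 and 0.0563. Removing KO 2 gave 0.0628 for Prdx2 and 0.108 for Prdx6, removing KO 3 gave 0.0518 for Prdx6, and removing control 1 gave 0.0522 for Prdx3. Prdx1, the most abundant form, lay at 169 to 206 CPM in KO and 206 to 250.1 CPM in control libraries without overlap and did not pass. Prdx5 averaged 51.6 ± 3.87 CPM in KO and 55.01 ± 5.59 CPM in control libraries.

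Among superoxide dismutases and catalase, the mitochondrial and the secreted dismutase fell and the other 2 genes did not pass, and with library totals none fell and 1 rose. Sod2, the mitochondrial manganese enzyme, held 30.3, 34.2, 32.8 and 29.6 CPM in KO 1 to 4, against 41.3, 43.4 and 43.4 CPM in controls 1 to 3. Libraries of each group lay close together (log2 fold change -0.43, SE 0.0818, adjusted p = 0.00285), but the call was lost with library totals (adjusted p = 0.0907). Sod3, the secreted enzyme, held 2.16, 1.63, 1.19 and 1.45 CPM in KO, against 1.75, 3.33 and 3.46 CPM in control libraries. KO 1 lay above control 1, and the call was close to the threshold (log2 fold change -0.82, SE 0.301, adjusted p = 0.0498). It was lost in 14 of 20 alternatives, among them without control 2 (adjusted p = 0.159), control 3 (0.153), KO 2 (0.0808), KO 3 (0.0883) or KO 4 (0.108). Sod1, the cytosolic copper and zinc enzyme, averaged 262 ± 18.2 CPM in KO and 219 ± 42.4 CPM in control libraries, and Cat, the peroxisomal catalase, 103 ± 13.7 CPM in KO and 116 ± 10.03 CPM in control libraries. Neither passed.

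Keap1, the adaptor that holds NRF2 for degradation, held 47.1, 57.5, 60.2 and 54.03 CPM in KO 1 to 4, against 68.6, 65.3 and 64.7 CPM in controls 1 to 3. It was lower in every KO library by a small margin (log2 fold change -0.27, SE 0.0935, adjusted p = 0.0392). The call was lost without control 1 (adjusted p = 0.112), control 2 (0.0955), control 3 (0.0769), KO 1 (0.0714), KO 2 (0.0586) or KO 4 (0.0856), and with totals (0.922). Osgin1, an NRF2-responsive growth inhibitor, held 37.1, 30.4, 29.6 and 24.6 CPM in KO, against 54.7, 25.9 and 22.3 CPM in control libraries. Control 1 alone stood high (log2 fold change -0.18, adjusted p = 0.637), and without it the value turned to 0.33.

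Per kilobase of exon, the scale on which genes can be set against each other, Txnip was the highest member in both genotypes, at 299.5 CPM per kilobase in KO and 427.7 in control libraries. Txn1 came next in KO libraries at 120.0 CPM per kilobase, with 83.4 in control libraries, and Gpx4 came next in control libraries at 94.2, with 99.8 in KO libraries. Gpx1 followed with 87.1 CPM per kilobase in KO and 78.2 in control libraries, then Gstm2 with 81.3 in KO and 78.0 in control libraries. In control libraries the levels from Gpx4 to Gstm2 lay within 1 SD of Gpx4 (18.8 CPM per kilobase, n = 3), so their order there was not resolved. Slc7a11 was the lowest in both, at 0.0695 CPM per kilobase in KO and 0.0861 in control libraries. Gstm5 and Gpx8, with the largest rises, were not among the 5 highest in either genotype.

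**Figure D4:**
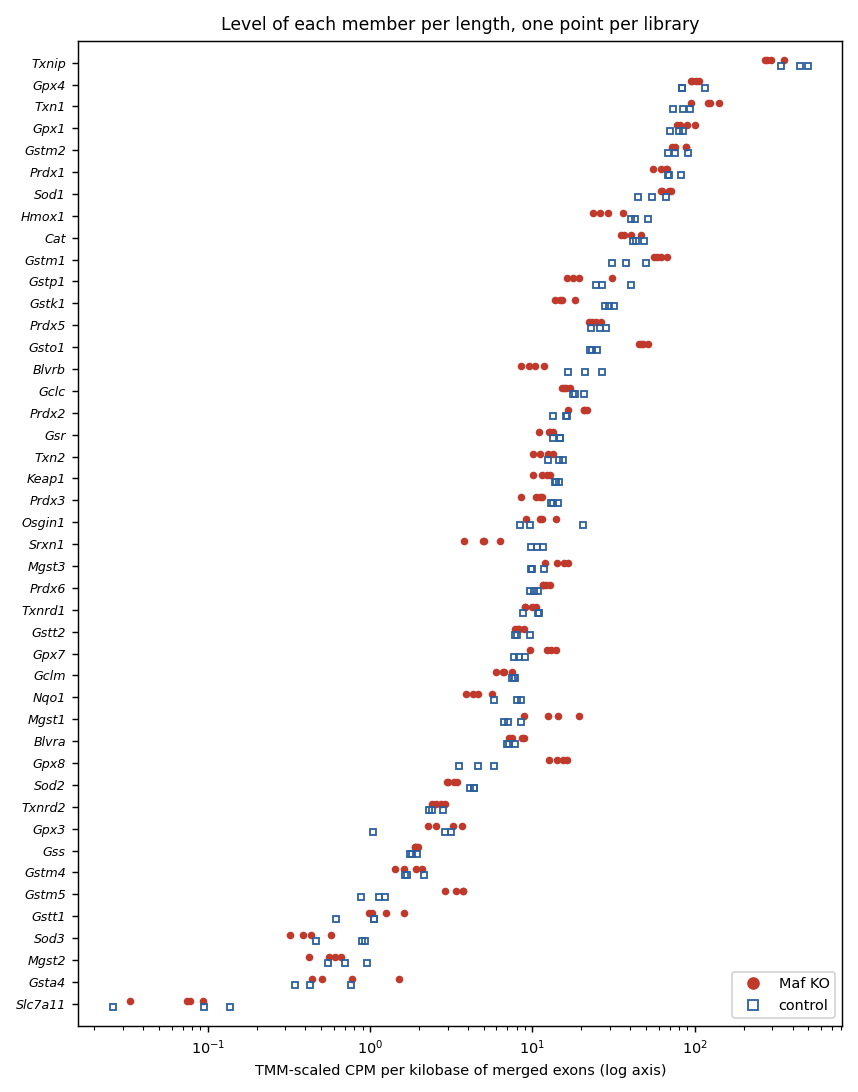
Level of each member per kilobase of exon (TMM-scaled CPM per kilobase, log axis), with a point for each c-Maf KO and each control library. Txnip lies at the top in both genotypes and Slc7a11 at the bottom.

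Among 14 regulators and partners of NRF2, 3 rose and 6 fell, and with library totals 4 rose and 4 fell. Nfe2l2 itself held 154, 178, 194 and 160.4 CPM in KO 1 to 4, against 227, 200.2 and 201 CPM in controls 1 to 3. Its groups did not overlap, but it missed the threshold (log2 fold change -0.29, SE 0.107, adjusted p = 0.0539). Nfe2l2 passed under relative log expression scaling (adjusted p = 0.0438), a filter of 1 CPM in 3 libraries (0.034), DESeq2 (0.0274), lane 5 alone (0.0148) and without KO 3 (0.0137), whereas with library totals its log2 fold change was -0.026. Small MAF genes moved in opposite directions. Maff held 23.3, 17.5, 10.2 and 14.7 CPM in KO, against 5.42, 6.04 and 4.74 CPM in control libraries (log2 fold change 1.60, SE 0.262, adjusted p = 0.00125). Mafk held 189, 142, 99.5 and 105 CPM in KO, against 87.8, 71.8 and 62.2 CPM in control libraries (log2 fold change 0.86, SE 0.226, adjusted p = 0.0134). For both, the KO libraries ranked KO 1, KO 2, KO 4 and KO 3, which is also their order in summed dissociation genes, and the part of dissociation in the rise was not tested. The Mafk call was lost without control 2 (adjusted p = 0.0518) or control 3 (0.0521). Mafg held 149.9, 122, 107 and 118 CPM in KO, against 211, 249.9 and 279 CPM in control libraries, with every KO library lower (log2 fold change -0.99, SE 0.137, adjusted p = 0.000537).

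Among the other regulators, Bach1, the haem-sensing repressor of Hmox1 and other targets, averaged 63.1 ± 9.09 CPM in KO and 124 ± 4.88 CPM in control libraries (log2 fold change -0.97, SE 0.115, adjusted p = 0.000222). Bach2, best known from lymphocytes, averaged 7.60 ± 0.463 CPM in KO and 11.3 ± 2.40 CPM in control libraries (log2 fold change -0.57, adjusted p = 0.0157, and 0.065 without control 1). Nfe2l1, a relative of NRF2 that drives proteasome genes, averaged 268 ± 57.2 CPM in KO and 509.7 ± 32.3 CPM in control libraries (log2 fold change -0.92, SE 0.161, adjusted p = 0.00174). The repressor Bach1 and the activator Nfe2l1 were thus lower together, 1.96-fold and 1.90-fold. Sqstm1, encoding p62, an autophagy receptor that can displace NRF2 from KEAP1, averaged 293 ± 34.6 CPM in KO and 459 ± 56.7 CPM in control libraries (log2 fold change -0.65, adjusted p = 0.00372), and Cul3 81.1 ± 10.1 CPM in KO and 116 ± 14.4 CPM in control libraries (log2 fold change -0.52, adjusted p = 0.0076, and 0.0517 with totals). Nfe2, a haematopoietic relative, rose at a low level, with 1.66, 1.66, 0.466 and 1.71 CPM in KO against 0.255, 0.333 and 0.482 CPM in control libraries (log2 fold change 1.94, SE 0.501, adjusted p = 0.0122). KO 3 lay inside the control range for Nfe2, and the call was lost without KO 1 and KO 4 (adjusted p = 0.0868). Platelet and megakaryocyte markers, cells in which Nfe2 is abundant, summed to 34.3 to 47.2 CPM in KO and 23.7 to 27.5 CPM in control libraries. Itga2b was the largest part of the sum, with means of 29.55 CPM in KO and 12.64 CPM in control libraries. Of the 5 markers tested, 3 rose and 1, Gp1ba, fell. The part of these cells in the Nfe2 result was not tested. Nfe2l3, Rbx1 and Dpp3 did not pass.

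Of 141 further genes of the wider redox pathways, those 14 regulators among them, 123 were tested. There were 21 rises and 41 falls (17.1% and 33.3%, beside 23.0% and 22.2% of all genes). With library totals 43 rose and 26 fell, so which direction held more calls depended on the scaling. Rises were 33.9% of the lists' calls with TMM and 62.3% with totals, against 50.8% and 76.3% over all genes. By this share the lists held fewer rises than all genes under both scalings. NADPH supply was mixed, with 5 rises and 4 falls among 13 genes, and 6 and 3 with library totals. H6pd, which makes NADPH inside the endoplasmic reticulum, held 41.5, 49.4, 55.7 and 37.2 CPM in KO, against 157, 156 and 169 CPM in control libraries (log2 fold change -1.81, SE 0.133, adjusted p = 2.3e-05). The cytosolic isocitrate dehydrogenase Idh1 fell (39.0 ± 7.01 CPM in KO, 80.3 ± 4.28 CPM in control libraries) and the mitochondrial Idh2 rose (57.1 ± 2.89 CPM in KO, 41.7 ± 2.55 CPM in control libraries). Malic enzyme Me2 fell (log2 fold change -1.23) and Taldo1 of the pentose phosphate pathway rose (0.50).

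Cysteine supply counted 3 rises and 2 falls among 10 genes. Slc1a5, a neutral amino acid transporter best known for glutamine, held 157, 131, 71.1 and 125 CPM in KO 1 to 4, against 7.94, 8.62 and 6.01 CPM in controls 1 to 3. The lowest KO library stood far above all controls (log2 fold change 4.00, SE 0.283, adjusted p = 1.8e-05). KO libraries ranked by Slc1a5 as they did by summed dissociation genes, and the part of dissociation in the rise was not tested. Slc3a2, the heavy chain that the Slc7a11 subunit needs to reach the cell surface, averaged 215 ± 32.3 CPM in KO and 412 ± 36.01 CPM in control libraries (log2 fold change -0.94, SE 0.132, adjusted p = 0.00058). Slc1a4 rose and Slc7a9 fell, both at under 2 CPM in every library, and Ahcy rose (log2 fold changes 1.10, -2.24 and 0.79). The Slc1a4 call was lost without control 2 (adjusted p = 0.0587), and the Ahcy call without KO 1 and KO 4 (0.0567). Glutathione turnover and transport held 1 fall and no rise among 11 genes tested, and 4 rises and no fall with library totals. The fall, of the dipeptidase Cndp2, was small and turned to 0.024 with library totals (log2 fold change -0.24, adjusted p = 0.0322). It was lost without control 1 (adjusted p = 0.105), control 2 (0.118), KO 1 (0.0509) or KO 4 (0.066).

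Iron and metal genes counted 7 falls and 1 rise among 10 tested, beside 22.2% and 23.0% of all genes. With library totals they counted 7 falls and 2 rises. The metallothioneins Mt1 and Mt2, which bind zinc and copper and scavenge radicals, averaged 74.3 ± 13.0 and 0.248 ± 0.160 CPM in KO libraries. In control libraries they averaged 353 ± 65.6 and 3.72 ± 0.891 CPM (log2 fold changes -2.25 and -3.87, adjusted p = 2.5e-05 and 0.000157). Slc40a1, the iron exporter ferroportin and an NRF2 target, averaged 104 ± 38.7 CPM in KO and 496 ± 6.73 CPM in control libraries (log2 fold change -2.25, SE 0.250, adjusted p = 0.000163). Ftl1, the ferritin light chain, which has near-identical pseudogenes, averaged 156 ± 11.9 CPM in KO and 286 ± 57.5 CPM in control libraries. Tfrc, the receptor that takes up transferrin-bound iron, held 16.6, 14.7, 11.1 and 12.8 CPM in KO, against 2.98, 3.33 and 2.50 CPM in control libraries. The import receptor was thus higher, and the exporter and storage chain lower, in all 4 KO libraries. KO libraries ranked by Tfrc as they did by summed dissociation genes, and the part of dissociation in its rise was not tested.

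Carbonyl and xenobiotic detoxification counted 10 falls and 1 rise among 18 genes tested, beside 22.2% and 23.0% of all genes. With library totals it counted 4 falls and 2 rises. Aldh9a1, an aldehyde dehydrogenase, held 16.9, 24.5, 21.3 and 18.1 CPM in KO, against 81.2, 85.9 and 91.8 CPM in control libraries (log2 fold change -2.09, SE 0.128, adjusted p = 1e-05). Akr1b8, an aldo-keto reductase, fell (log2 fold change -1.64), as did Aldh2, the mitochondrial acetaldehyde dehydrogenase (-1.04), and Cyb5r1 (-0.52). Ephx1, the microsomal epoxide hydrolase and a common NRF2 target, went the other way with 73.7, 47.6, 76.3 and 76.5 CPM in KO, against 28.6, 20.3 and 22.1 CPM in control libraries (log2 fold change 1.53, SE 0.190, adjusted p = 0.000288). Among glutathione-linked enzymes outside the 44, Gstt3 and Ptgr1 rose and Gstp3 and Glo1 fell, 4 of 12 tested, while with library totals 7 rose and 1 fell. The Glo1 call was lost with totals (adjusted p = 0.119) and without KO 1 and KO 4 (0.0517). Gstt3, a theta-class transferase, averaged 3.80 ± 0.640 CPM in KO and 0.853 ± 0.346 CPM in control libraries, and Gstp3, a pi-class one, 0.790 ± 0.072 CPM in KO and 2.10 ± 0.607 CPM in control libraries. The Ptgr1 call (log2 fold change 0.73, adjusted p = 0.0372) was lost without control 1 (adjusted p = 0.0902), control 2 (0.0619), KO 2 (0.0586), KO 3 (0.0752) or KO 4 (0.0915).

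Thioredoxin-like and repair oxidoreductases counted 3 rises and 8 falls among 23 genes, and 9 rises and 4 falls with library totals. Selenop, the secreted selenium carrier, held 1534, 3588, 4023 and 1802 CPM in KO, against 19920, 21520 and 19430 CPM in control libraries (log2 fold change -2.89, SE 0.346, adjusted p = 0.000238). Msrb3, a methionine sulfoxide reductase, Nxn, nucleoredoxin, and Selenot, a selenoprotein of the endoplasmic reticulum, fell (log2 fold changes -1.32, -0.93 and -0.94), and Sesn2, a stress-induced sestrin, rose (0.69). Sources of superoxide and peroxide counted 3 rises and 1 fall among 12 genes tested. Nos3, the endothelial nitric oxide synthase, averaged 328 ± 17.4 CPM in KO and 233 ± 16.1 CPM in control libraries (log2 fold change 0.50, SE 0.0972, adjusted p = 0.00317). Xdh, xanthine dehydrogenase, fell (366 ± 85.0 CPM in KO, 683 ± 188 CPM in control libraries), with the call lost without KO 1 and KO 4 (adjusted p = 0.073). Ncf4, a subunit of the phagocyte oxidase, rose at a low level, with the call lost without control 1 (adjusted p = 0.0514). Aox3, an aldehyde oxidase abundant in hepatocytes, held 24.7, 1.498, 3.81 and 5.61 CPM in KO, against 0.801, 0.999 and 1.67 CPM in control libraries. Its KO 1 value stood far above the rest, in the library richest in hepatocyte markers. The log2 fold change was 2.95 (adjusted p = 0.0258) and 1.66 without KO 1, and the call was lost without control 1 (adjusted p = 0.0828) or control 2 (0.0863).

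**Figure D5:**
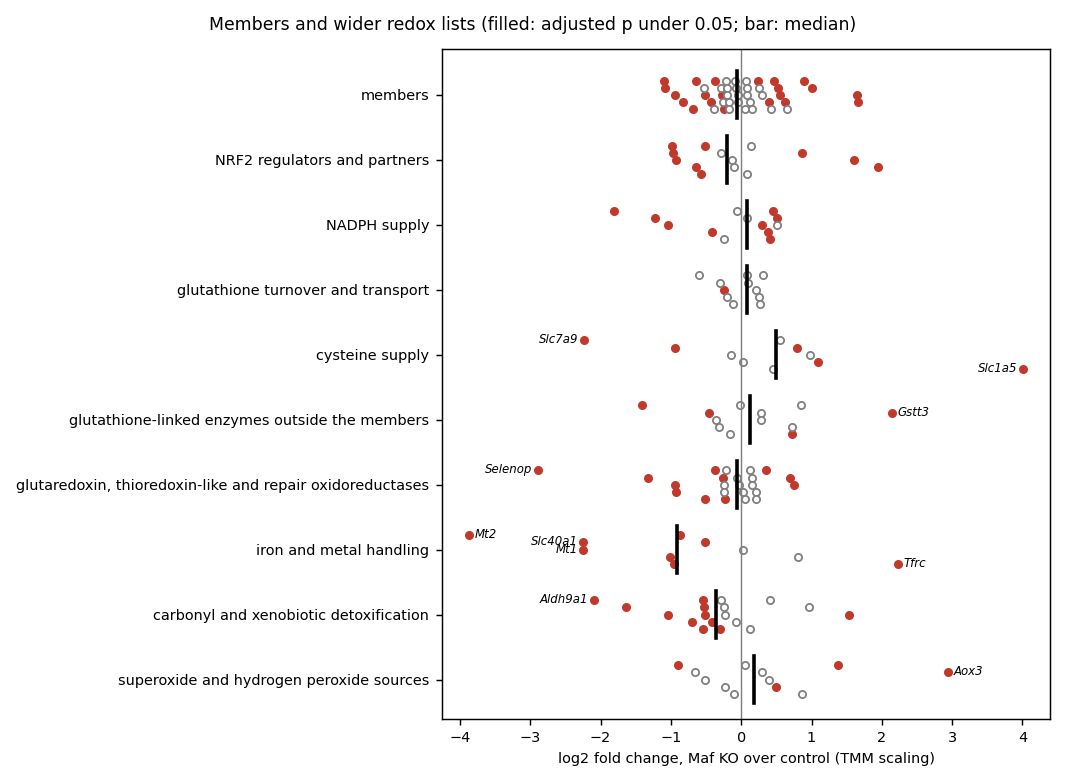
Log2 fold change (TMM scaling), c-Maf KO over control, of the members and of genes of the wider redox pathways, by list, with filled points for genes at an adjusted p under 0.05 and a bar at the median of each list. Slc1a5 at 4.00 is the highest and Mt2 at -3.87 the lowest of the genes named.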

How the data were processed

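RNA of sorted mouse liver endothelium was measured in 7 libraries, grouped by the genotype in the labels into 4 c-Maf KO and 3 control. What the authors deposited is a table of raw counts of reads for each Ensembl ID, with no normalization. FastQC 0.11.5, STAR 2.7.6a and genome build GRCm38 were used, per the submitters' processing notes. The counter, annotation release and strand setting are not given in the sources used. A symbol was found for 52403 of the 52636 IDs and not for 233. Gene coordinates and exon lengths come from GENCODE release M21 (GRCm38), and promoter sequences from RefSeq (GRCm38.p6). No protein sequence was used.

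Analysis was in R 4.3.3 with edgeR 4.0.16. Low genes were removed by filterByExpr (minimum count 10, minimum total 15), libraries were scaled by TMM, and KO was compared with control by the quasi-likelihood F-test without covariates. P-values were adjusted by Benjamini-Hochberg over all 15512 genes tested, at a threshold of 0.05. SE is that of the log2 fold change. No test was run over the members as a list. The code was tested on simulated data. The alternatives included other scalings, filters, DESeq2 1.42.0, limma-voom (limma 3.58.1), a test against a 1.5-fold change, lane, replicate number, and libraries left out. A count of 0 was taken to allow 3 counts, 0.0873 to 0.132 CPM per library, and such floors cover counting error only.

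All 44 members are named. Of each wider list, up to 5 genes past the threshold with the smallest p are named, and the NRF2 regulators, except 1 that is counted but not reported here. Promoters are shown for the members with the largest called rise and fall and for classic NRF2 targets. The members, lists and alternatives were chosen with earlier results of these data known.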

Additional observations from a re-analysis of the deposited data

Results flagged for a closer look

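Among 92 genes named by the text and looked at over the 4 KO libraries, 5 had a library far from the other 3, and chance flags about 1 in 20 groups. Nfe2 stood at 0.466 CPM in KO 3, under the other KO libraries at 1.66 to 1.71 CPM. Dpp3, a competitor of NRF2 for KEAP1, stood at 45.6 CPM in KO 1, under the other 3. Slc1a4 stood at 1.82 CPM in KO 2, above the other 3. In the same library, Ephx1 stood at 47.6 CPM, under the other 3, and Akr1b8 at 84.7 CPM, above them. None of the 44 members stood out in this way.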

How the results depend on the processing

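Of 21 members called, 13 kept their direction and call under every other scaling, and Gpx8, Gstm5, Gsto1, Gstk1, Blvrb and Srxn1 under all 20 alternatives. Over all genes there were 3561 rises and 3448 falls. Library totals gave 6373 and 1976, the test against a 1.5-fold change 1201 and 968, and leaving out KO 1 and KO 4 gave 2234 rises. The members' 10 rises and 11 falls became 16 and 4 with library totals and 3 and 3 in the 1.5-fold test. Upper-quartile scaling gave 6 falls, no filter 7 falls, lane 5 alone 6 rises, and leaving out KO 1 and KO 4 gave 6 falls. Over all genes the same settings gave 2738 falls, 3150 falls, 3069 rises and 2420 falls. The wider lists' 21 rises and 41 falls became 43 and 26 with totals and 6 and 17 in the 1.5-fold test. Leaving out each library in turn gave 5 to 11 rises and 6 to 13 falls among the members. Over all genes it gave 2379 to 3769 rises and 2584 to 3930 falls.

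Whether the numbers in the labels pair the libraries was not settled. Deviations of same-numbered libraries correlated at -0.0133, 0.162 and 0.0674, and not every library correlated best with its own number. The 0.162, for control 2 and KO 2, was the highest of all pairs. With so few libraries, these correlations cannot decide whether the numbers pair them. With the replicate number as a replicate block over replicates 1 to 3, the members counted 6 rises and 7 falls, and Osgin1 turned to 0.0196. All genes then counted 2448 rises and 2607 falls.

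Some log2 fold changes changed sign. With library totals these were Gclc (0.025), Gclm (0.065), Gsr (0.058), Gstm4 (0.22), Gstt2 (0.22), Txn2 (0.0011), Txnrd1 (0.19), Prdx1 (0.0503), Prdx5 (0.17), Cat (0.096), Osgin1 (0.087), Rbx1 (0.14), Dpp3 (0.16) and Cndp2 (0.024). With upper-quartile scaling they were Gstm4 (0.081), Gstt2 (0.085), Txnrd1 (0.047), Prdx5 (0.033) and Dpp3 (0.018). In lane 5 alone they were Gpx3 (-0.15), Gpx4 (-0.022) and Gstm2 (-0.051). Without KO 1 and KO 4 they were Slc7a11 (0.0039), Gsta4 (-0.10), Txnrd1 (0.014) and Nfe2l3 (-0.11). Leaving out control 2 turned Slc7a11 (0.23), Gpx4 (-0.0044), Gstm2 (-0.035) and Nfe2l3 (-0.054), and leaving out control 3 turned Gpx3 (-0.057), Gpx4 (-0.00339) and Gstm4 (0.087). Without KO 2 Gstm4 turned (0.04), and without control 1 Gstt2 (0.054) and Osgin1 (0.33). Over the single libraries left out, values ran from -0.74 to 0.23 for Slc7a11, -0.057 to 0.56 for Gpx3, -0.0044 to 0.26 for Gpx4, -0.035 to 0.18 for Gstm2, -0.15 to 0.087 for Gstm4, -0.11 to 0.054 for Gstt2, -0.41 to 0.33 for Osgin1 and -0.054 to 0.42 for Nfe2l3. The cause was not tested. Depth limits Slc7a11, Gsta4, Gstt1 and Sod3, whose levels of a few CPM rest on few counts.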
